A study of Drosophila melanogaster with 36 samples.

Results

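The heads of young adult *Drosophila melanogaster* females were compared between 2 larval diets, across all genes expressed in the head. Females of the H group were reared as larvae on 120% SYA (sugar-yeast-agar, the standard laboratory food of sugar and yeast set in agar), and those of the M group on 100% SYA. All were then kept on one common adult diet, with regular mating. Both were taken at RNA-1, the time at which 10% of the cohort had died, and each sample held the heads of 11 or 12 females. The comparison rests on 6 of the 36 samples of the series, 3 of H and 3 of M. The 6 head samples of RNA-2, taken after 60% of the cohort had died, and the young fat body and ovary samples were used for comparison. Of the 12842 genes in the head table, 11197 were tested, those that reached 10 normalized counts in 3 or more of the 12 head samples. Each time point was set by mortality, so the age of the females in days may differ between H and M, and it cannot be told apart from larval diet.

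An adult fly head holds the brain, the compound eyes and the 3 ocelli, which are simple eyes on top of the head. It also holds antennae and mouthparts, cuticle, muscle, blood cells and a fat body of its own, the tissue that stores lipid and glycogen and secretes blood proteins, yolk proteins and immune peptides. Larvae feed and store nutrients, and the adult is built from these stores, so larval food can leave marks on adult size and metabolism. RNA levels in a whole head mix these cell types, and fewer cells of a type and less RNA per cell cannot be told apart in such samples. The markers of head tissues were found in every library. Opsins and other eye genes summed to between 3048000 and 3785000 normalized counts in H libraries, against 3444000 to 3730000 in M libraries, and 6 neuron markers to between 139400 and 175800 in H, against 88910 to 146800 in M. Digestive proteases of the gut summed to at most 1943 in H and 2564 in M, and 16 eggshell genes to at most 3423 in H and 2544 in M.

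Levels are given as normalized counts, in the order of the replicate numbers. M replicates 1 and 3 and H replicate 3 stood apart from the others. M replicates 1 and 3 carried a trend on transcript length: across genes, the deviation of a library from the mean of the 12 head libraries had a correlation with log2 transcript length of r = -0.39 in M replicate 1 and r = -0.48 in M replicate 3, against 0.02, 0.20 and 0.21 in the H libraries and 0.17 in M replicate 2. Genes are not independent replicates, so no p-value is given. In the eighth of genes with the shortest transcripts (median 615 bases) the median log2 difference of H minus M was -0.27, and in the eighth with the longest (median 5388 bases) it was 0.43. With M replicate 2 as the only M library, the same medians were -0.0044 and -0.012. The long neuronal gene *brp*, which encodes an active-zone scaffold, shows the pattern: 10489, 14421 and 15017 in H heads, against 5514, 12880 and 4609.8 in M heads. The H libraries and M replicate 2 lay together, and M replicates 1 and 3 lay below them. The short gene *RpS15*, which encodes a ribosomal protein, had the opposite order, with 103080, 99138 and 84335 in H heads, against 127680, 98612 and 147990 in M heads. For many genes and gene lists, though not for all, H minus M values are therefore given below beside the difference of the 3 H libraries from M replicate 2 alone.

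**Figure D1:**
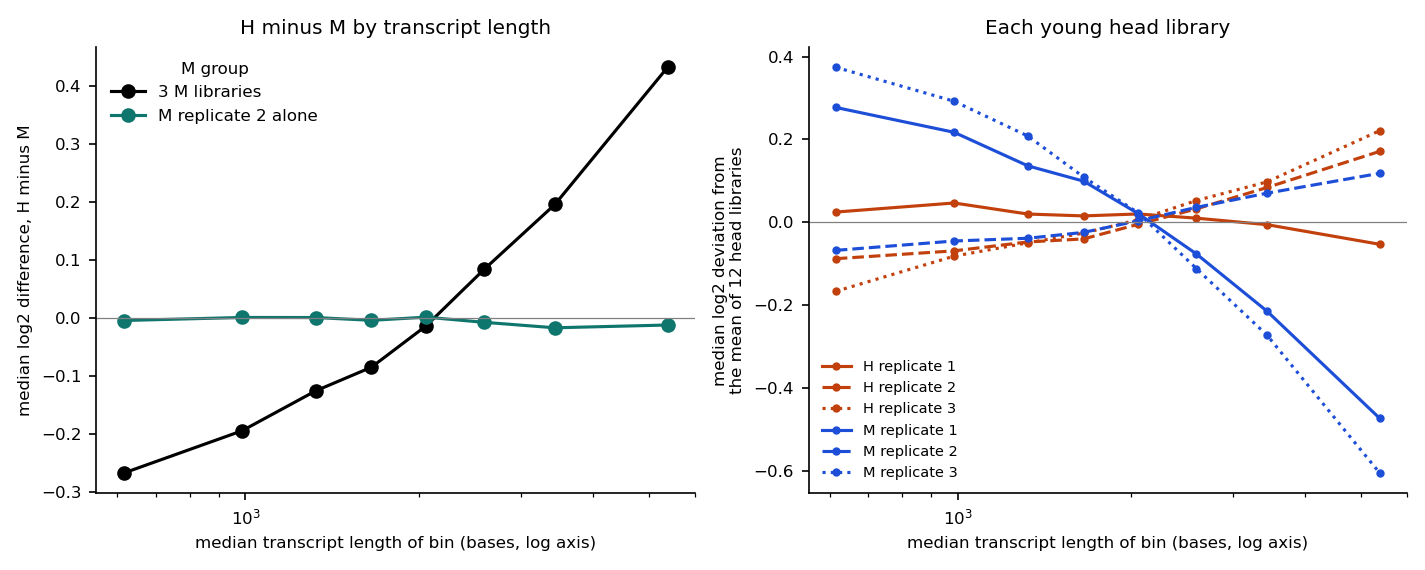
Transcript length and expression in young heads, in 8 bins of genes (x, median transcript length in bases, log axis). Left, median log2 difference of H minus M with all 3 M libraries (black) and with M replicate 2 alone (green). Right, median log2 deviation of each library, H in orange and M in blue. With 3 M libraries the difference runs between -0.27 in the shortest bin and 0.43 in the longest, and with M replicate 2 alone it stays near 0.

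H replicate 3 carried a group of genes at levels seen in no other head library. In it, 25 genes had at least 100 normalized counts and at least 8 times the level of every one of the other 11 head libraries, and in the other 5 young libraries no gene did. They include the Turandot stress peptides, secreted from the fat body in response to stress and injury: *TotA* was at 3590.3, 6304 and 289620 in H heads, against 9640.2, 5213 and 8786 in M heads. *Diedel*, a secreted regulator of immune signalling, was at 60.5, 149 and 33322 in H heads, against 373, 161 and 260.4 in M heads. *kn*, a transcription factor needed for the lamellocyte blood cells that encapsulate parasites, was at 512, 593 and 11720 in H heads, against 518, 566 and 478 in M heads, and *Tep1*, *Toll-4* and *lectin-24A* had the same order. None of the 25 was called. In addition, 5 genes of the antenna, 4 odorant-binding proteins and *a5* (antennal protein 5), followed single libraries and not diet: *Obp83a* was at 751, 26.8 and 13.3 in H heads, against 21.8, 1309 and 684 in M heads, and *Obp83b*, *Obp84a*, *Obp59a* and *a5* were likewise low in H replicates 2 and 3 and M replicate 1. *Orco*, the co-receptor of the olfactory neurons, did not follow them, with 776, 511 and 533 in H heads, against 625, 897 and 639 in M heads. After normalization, the libraries summed to between 62684280 and 66612970 counts in H and between 65672150 and 70637997 in M. The commonest low value in a library, which is near what 1 read is worth, was 0.58 in H replicate 3, the deepest library, and 1.08 to 1.53 in the other 5.

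Over all genes, 72 were higher in H heads (0.643% of genes tested) and 308 were lower (2.75%), 380 in all (3.39%), at a Benjamini-Hochberg adjusted p under 0.05 in limma. All 380 had H and M libraries that did not overlap, as had 16.8% of all genes tested (6.12% with H above M and 10.7% with H below M). Differences were modest: the median log2 difference was 0.56 among the higher genes and -0.61 among the lower ones, and 8 higher and 52 lower genes changed by at least 2-fold. Called genes also differed in length, with a median transcript of 3095 bases for those higher in H, 1202 bases for those lower in H and 1837 bases for all genes tested. Among the 1392 genes with the shortest transcripts 77 were called lower, and among the 1390 with the longest 1 was. The share of 2.75% is therefore not matched in length to lists of short transcripts. Neuropeptides, glutathione S-transferases and cuticle proteins, for example, have medians of 953, 858 and 926 bases. Against M replicate 2 alone all 380 kept their direction, which follows from groups that do not overlap and is no separate check. M replicate 2 was also part of the fit that called them. From it, 59 of the 72 higher and 288 of the 308 lower genes kept at least 0.5 times the log2 difference. With the length trend removed from every library, 37 of the higher and 240 of the lower genes were still called in the same direction, among 114 higher (1.02%) and 418 lower genes (3.73%), or 4.75% of all genes, called that way. With H replicate 3 also left out, 30 and 179 of them were called, among 0.875% of all genes higher, 2.5% lower and 3.38% either way. The calls depended on which libraries were used. With M replicate 2 as the only M library, 0 genes were called higher and 1 lower (0.00893%), and H and M libraries fitted without the old heads gave 2 and 1. Without M replicate 1 the counts were 1 higher and 9 lower, without M replicate 3 they were 4 and 40, and without M replicate 2 they were 2477 and 2216. Leaving out H replicate 2 gave 2 and 35, and leaving out H replicate 3 gave 20 and 88, of which 15 and 74 were among the 72 and the 308.

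**Figure D2:**
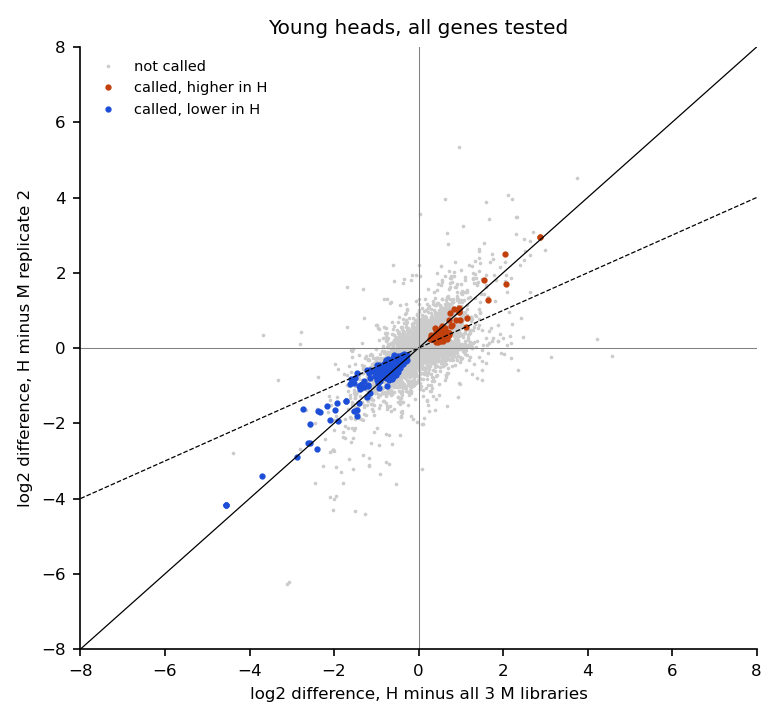
Log2 difference of H minus M for each gene tested in young heads, with all 3 M libraries (x) and with M replicate 2 alone (y); orange points were called higher in H, blue points lower and grey points were not called. The solid line marks equal differences and the dashed line 0.5 times the difference. All 72 orange and 308 blue points lie on the same side of 0 on both axes, which follows from H and M libraries that do not overlap.

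The largest difference among well-expressed named genes that rose in H heads was that of *Rh2*, the opsin of the ocelli. *Rh2* was at 8784, 7582 and 6735 in H heads, against 2004, 1342 and 2413 in M heads (log2 difference 2.04 ± 0.40 SE, adjusted p = 0.0271). The lowest H library was above the highest M library by a wide margin, and the log2 difference from M replicate 2 was 2.51. The opsins of the compound eye behaved otherwise. *ninaE*, the opsin of the outer photoreceptors R1 to R6, was at 1915800, 1860800 and 1448100 in H heads, against 1946000, 1855800 and 1768800 in M heads (log2 difference -0.10 ± 0.16 SE, adjusted p = 0.689). The log2 differences of *Rh3*, *Rh4*, *Rh5* and *Rh6*, the opsins of the inner photoreceptors, were -0.16, -0.04, 0.03 and -0.14, with adjusted p of 0.574, 0.861, 0.892 and 0.686. Of the 36 phototransduction and eye genes tested, *Rh2* was the one called (2.78% higher, against 0.643% of all genes). The median log2 difference of the list was 0.06, against -0.02 over all genes tested. Without H replicate 3 the adjusted p of *Rh2* was 0.065. Later in life *Rh2* was at 159.9, 321 and 336 in old H heads, against 123, 139.8 and 47.4 in old M heads (log2 difference 1.46 ± 0.40 SE, adjusted p = 0.358), and the difference between the young and the old log2 difference was not called (0.58 ± 0.57 SE, adjusted p = 0.557).

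*Hr38*, a nuclear receptor of the NR4A family whose transcription follows neuronal activity, also rose in H heads, with 1117, 1519.8 and 1529 in H heads, against 416, 567 and 352 in M heads (log2 difference 1.65 ± 0.19 SE, adjusted p = 0.00476). Without H replicate 3 its adjusted p was 0.0168. Its log2 difference was 1.2765 from M replicate 2 and 1.12 with the length trend removed (adjusted p = 0.00341). *Hr38* was the one called among 6 activity-regulated genes (16.7% higher, against 0.643% of all genes). Another of them, *sr*, the fly homologue of the Egr transcription factors, was at 865, 1034 and 1129.7 in H heads, against 540.1, 899.9 and 485 in M heads (log2 difference 0.70 ± 0.19 SE, adjusted p = 0.0707), and H replicate 1 lay below M replicate 2. *Arc1*, whose protein forms capsid-like particles that carry RNA at synapses, was at 59645, 46940 and 137440 in H heads, against 141530, 142210 and 168060 in M heads (log2 difference -1.05 ± 0.30 SE, adjusted p = 0.0757), with H replicate 3 close to the M libraries. Without that library its adjusted p was 0.00203. Other named genes that rose in H heads by the same criteria include *sand*, a potassium channel that promotes waking when inserted into the membrane of sleep-control neurons, at 451, 337 and 295 in H heads, against 188, 184 and 180.3 in M heads (log2 difference 0.94 ± 0.18 SE, adjusted p = 0.0249). *net*, a bHLH transcription factor known from wing veins, was at 514, 592 and 643 in H heads, against 352, 382 and 279 in M heads (log2 difference 0.79 ± 0.13 SE, adjusted p = 0.0189). *Tis11*, which promotes decay of mRNAs with AU-rich elements, was at 4981, 6497 and 7407 in H heads, against 3602, 4960.3 and 3579.8 in M heads (log2 difference 0.64 ± 0.15 SE, adjusted p = 0.0498), and its highest M library, replicate 2, lay close under its lowest H library. *lmgB* was at 961, 979 and 1069 in H heads, against 532, 762 and 567 in M heads (log2 difference 0.71 ± 0.15 SE, adjusted p = 0.0311). With H replicate 3 left out, *sand* (0.0304) and *net* (0.0467) had an adjusted p under 0.05, and *Tis11* (0.149) and *lmgB* (0.0945) did not.

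*Lsd-2*, the perilipin that coats lipid droplets, rose, with 41331, 46441 and 49660 in H heads, against 31516, 31646 and 26043 in M heads (log2 difference 0.63 ± 0.13 SE, adjusted p = 0.0298; 0.53 from M replicate 2). *CROT*, a peroxisomal carnitine acyltransferase that acts on medium-chain fatty acids, rose too, with 11598, 10913 and 10481 in H heads, against 7291, 6532 and 6358 in M heads (log2 difference 0.71 ± 0.17 SE, adjusted p = 0.0445; 0.75 from M replicate 2). In both genes all H libraries lay above all M libraries, as in every gene called higher. *apolpp*, the apolipophorin that forms the main lipid carrier of the blood, was at 692580, 735670 and 637620 in H heads, against 501450, 471120 and 445430 in M heads (log2 difference 0.54 ± 0.09 SE, adjusted p = 0.0201). It is a long transcript of 10375 bases, and its log2 difference was 0.55 from M replicate 2 but -0.12 with the length trend removed (adjusted p = 0.823). *daw*, an activin-type ligand known to act in sugar and fat metabolism, was at 12200, 13574 and 13467 in H heads, against 8404, 9775 and 7407 in M heads (log2 difference 0.62 ± 0.12 SE, adjusted p = 0.0249; 0.42 from M replicate 2). Without H replicate 3 the adjusted p was 0.093 for *Lsd-2*, 0.101 for *CROT* and 0.0663 for *daw*, so these calls ended, and 0.0323 for *apolpp*. None of the 24 genes of lipid synthesis and breakdown on the list passed the test, and their median log2 difference was 0.06, or 0.08 from M replicate 2. With the length trend removed 2 were called lower, both among the 13 genes of synthesis, against 3.73% of all genes. The median was then -0.06 for the list and -0.23 for the genes of synthesis. From M replicate 2 the genes of synthesis had a median of 0.06.

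Among secreted proteins of the fat body, *Lsp2* and *Tsf1* fell in the same heads. *Lsp2*, a storage protein of larval blood that adult fat body also makes, was at 3916, 4160.4 and 2167 in H heads, against 8103, 12595 and 17830 in M heads (log2 difference -1.90 ± 0.41 SE, adjusted p = 0.0365). The M libraries were spread widely, with a mean of 12843 and an SD of 4868, and the H libraries had a mean of 3414 and an SD of 1087. Its adjusted p was 0.11 without H replicate 3. *Tsf1*, transferrin 1, the main iron carrier of the blood, was at 140790, 119430 and 124400 in H heads, against 273120, 205730 and 285160 in M heads (log2 difference -0.98 ± 0.13 SE, adjusted p = 0.00809; -0.69 from M replicate 2; adjusted p = 0.0229 without H replicate 3). The yolk proteins *Yp1*, *Yp2* and *Yp3* were not called, with log2 differences of -0.23, -0.33 and -0.42. *Yp1* was at 3418700, 3288900 and 2373600 in H heads, against 4033900, 3067000 and 3512200 in M heads, and the groups overlapped. The 12 genes of the fat body list summed to between 923600 and 1020000 in H libraries and between 723100 and 780700 in M libraries, most of it *apolpp*, and their part in these differences was not tested. Of the 9 blood cell markers, all had a positive log2 difference and 8 had all H libraries above all M libraries, against 6.12% of all genes tested. Their sum was 117900 to 132600 in H, against 75710 to 96960 in M. The one that passed the test was *PPO2*, a prophenoloxidase of crystal cells that makes melanin, at 2854, 2994 and 1989 in H heads, against 1668, 1344 and 1594 in M heads (log2 difference 0.75 ± 0.15 SE, adjusted p = 0.0259). *PPO2* makes up 11.1% of the list, against 0.643% of all genes called higher. The median of the 9 markers was 0.46, 0.48 from M replicate 2 and 0.09 with the length trend removed, and their median transcript has 5126 bases.

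**Figure D3:**
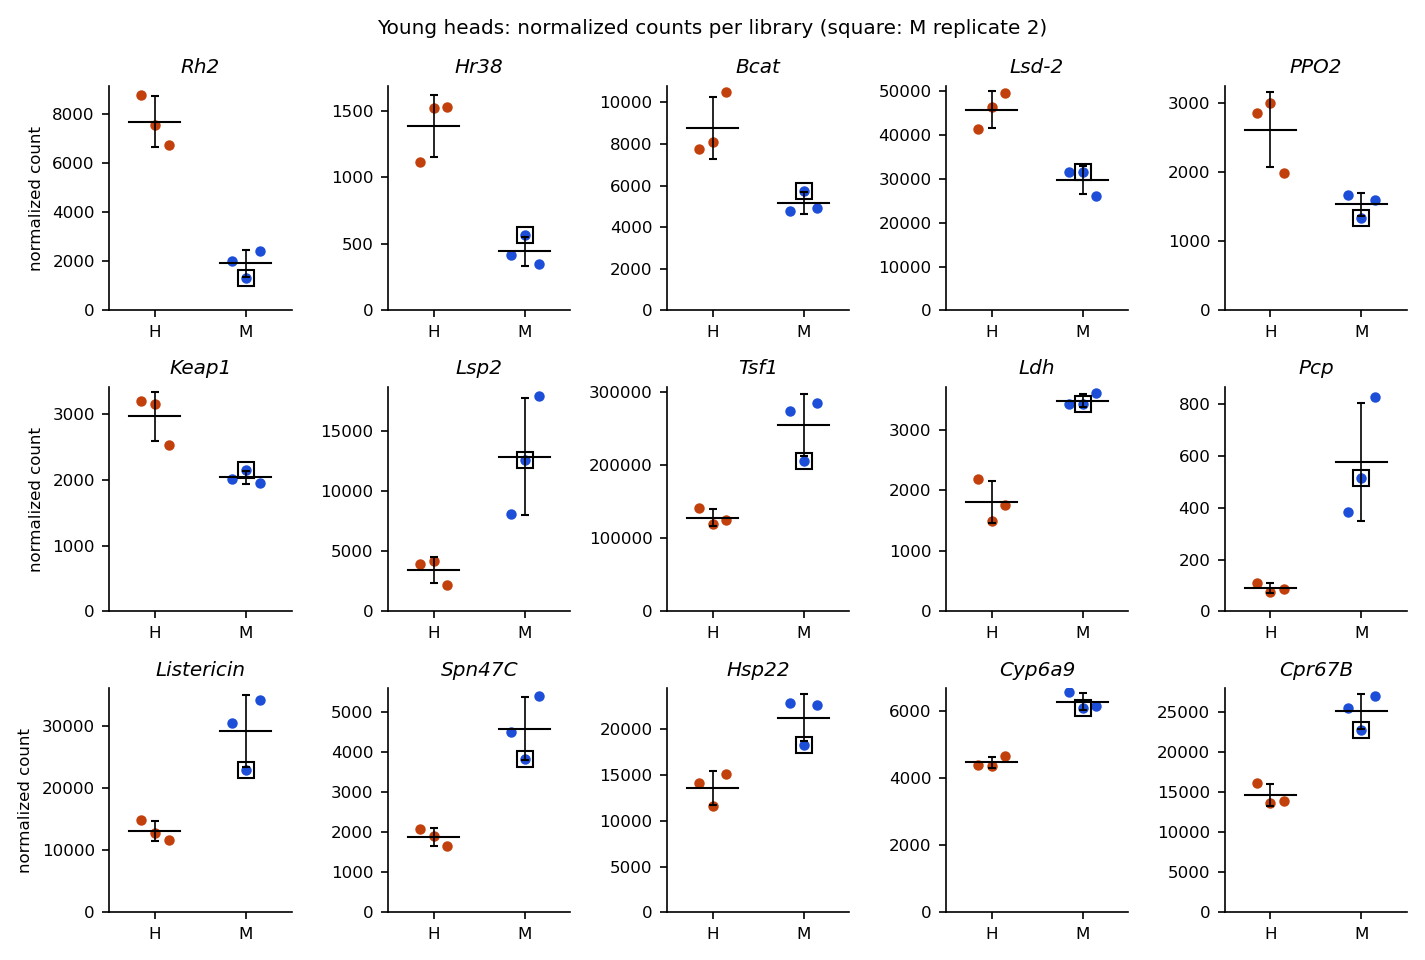
Normalized counts (y) of 15 genes in young heads, H libraries (orange) left and M libraries (blue) right in each panel, with the mean (long bar) and SD (error bar, n = 3 each); a square marks M replicate 2. In every panel the 3 H libraries and the 3 M libraries do not overlap, as in all 380 called genes, with *Rh2* at 6735 to 8784 in H and 1342 to 2413 in M.

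In sugar handling, 4 genes fell. *Ldh*, lactate dehydrogenase, was at 2186, 1489 and 1753 in H heads, against 3422, 3432 and 3604 in M heads (log2 difference -0.96 ± 0.17 SE, adjusted p = 0.0201; -0.94 from M replicate 2), and its M libraries lay close together. *Tret1-1* and *Tret1-2* encode trehalose transporters, which carry the main blood sugar of insects across membranes. *Tret1-1* was at 12963, 12392 and 13154 in H heads, against 18267, 16846 and 15330 in M heads (log2 difference -0.39 ± 0.09 SE, adjusted p = 0.0454) and *Tret1-2* at 75.5, 83.5 and 135 in H heads, against 239.7, 159.6 and 196 in M heads (log2 difference -1.04 ± 0.23 SE, adjusted p = 0.0369). Both had all H libraries below all M libraries, as had every gene called lower. *Mal-B2*, a maltase, was at 8974, 8936 and 8168 in H heads, against 13269, 11200 and 12401 in M heads (log2 difference -0.50 ± 0.09 SE, adjusted p = 0.0208). These 4 were the ones called among 35 genes of sugar, trehalose and glycogen (11.4%, against 2.75% of all genes called lower), and the list had a median log2 difference of -0.26, or -0.10 from M replicate 2. All 4 were still called with the length trend removed, but without H replicate 3 only *Tret1-2* was (adjusted p = 0.0224), with 0.0601 for *Ldh*, 0.0601 for *Mal-B2* and 0.0969 for *Tret1-1*. Among genes of amino acid metabolism, *Bcat*, a branched-chain amino acid aminotransferase, rose, with 7754, 8076 and 10500 in H heads, against 4804, 5754 and 4931 in M heads (log2 difference 0.76 ± 0.15 SE, adjusted p = 0.0269). *Hn*, phenylalanine hydroxylase, fell, with 48235, 46327 and 40160 in H heads, against 71119, 57675 and 66487 in M heads (log2 difference -0.53 ± 0.11 SE, adjusted p = 0.0306), and *AhcyL2*, a relative of S-adenosylhomocysteine hydrolase, fell with 1037, 951 and 1025 in H heads, against 1435, 1249 and 1346 in M heads (log2 difference -0.42 ± 0.07 SE, adjusted p = 0.0201). *Hn* and *AhcyL2* were the 2 called of 26 on the list of amino acid and one-carbon metabolism (7.69% lower, against 2.75% of all genes). *Bcat* is not on that list. *AhcyL2* was still called when H replicate 3 was left out, and *Hn* (0.0922) and *Bcat* (0.0779) were not. No gene of the tricarboxylic acid cycle (21 tested) was called.

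Of 32 antimicrobial peptides and Bomanins tested, 7 fell and none rose (21.9% lower, against 2.75% of all genes). With the length trend removed 4 were called lower and 1 higher, against 3.73% and 1.02% of all genes. The Bomanins and Daishos are short secreted peptides induced through the Toll pathway, the branch of fly immunity that answers fungi and Gram-positive bacteria; 6 of 14 fell, all 14 had negative log2 differences, and 9 had all H libraries below all M libraries, against 10.7% of all genes tested. *BomBc2* was at 14429, 14697 and 18388 in H heads, against 33227, 24227 and 33490 in M heads (log2 difference -0.93 ± 0.15 SE, adjusted p = 0.0191) and *BomT3* at 12580, 12339 and 13651 in H heads, against 20789, 17406 and 17805 in M heads (log2 difference -0.53 ± 0.08 SE, adjusted p = 0.0134). The log2 differences from M replicate 2 were -0.62 and -0.44, and M replicate 2 was the lowest M library for each. *BomS6*, *BomS2*, *Dso1* and *BomS5* had log2 differences of -1.02, -0.75, -1.16 and -0.77 (adjusted p = 0.0233, 0.0332, 0.0362 and 0.0387). Without H replicate 3 the calls of *BomT3*, *BomBc2*, *BomS6*, *BomS2* and *Dso1* held, and that of *BomS5* did not (0.121). With the length trend removed *BomBc2*, *Dso1* and *BomS5* were still called, and *BomT3* (0.143), *BomS2* (0.134) and *BomS6* (0.0513) were not, so that *BomBc2* and *Dso1* kept the call under both. The median of the 14 peptides was -0.68, -0.39 with the length trend removed and -0.32 from M replicate 2; their transcripts are short, with a median of 386.5 bases. *Drsl4*, a relative of the antifungal peptide drosomycin, fell as well, with 634, 485 and 469 in H heads, against 1886, 1014 and 2242 in M heads (log2 difference -1.63 ± 0.30 SE, adjusted p = 0.0251; adjusted p = 0.0727 without H replicate 3). Of the 6 drosomycin and metchnikowin genes tested, *Drsl4* was the one called, and 3 had positive and 3 negative log2 differences. Their median was -0.008, 0.32 with the length trend removed and 0.28 from M replicate 2. In 3 of the 6 all H libraries lay above all M libraries, and in 2 all H libraries lay below. The attacins, diptericins, drosocin, cecropins and defensin, which answer mainly to the Imd pathway, gave 0 calls among 12 and a median of 0.37, or 0.61 from M replicate 2. *Listericin*, an antibacterial peptide that is not on the list, fell, with 14827, 12870 and 11738 in H heads, against 30601, 22899 and 34198 in M heads (log2 difference -1.14 ± 0.16 SE, adjusted p = 0.00858, and -0.81 from M replicate 2).

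Some recognition molecules upstream of these peptides also fell. Of 38 genes on the Toll and Imd pathway list, 5 fell and none rose (13.2% lower, against 2.75% of all genes). *GNBP3*, the sensor of fungal beta-glucan, had a log2 difference of -0.49 (adjusted p = 0.0459), and its relative *GNBP2* was at 4269, 4069 and 3667 in H heads, against 5912, 4685 and 6159.7 in M heads (log2 difference -0.47 ± 0.10 SE, adjusted p = 0.0369). *PGRP-LA* and *PGRP-LF*, peptidoglycan recognition proteins that modulate the Imd pathway, had log2 differences of -0.34 and -0.47 (adjusted p = 0.0388 and 0.0426). *modSP*, the protease that links recognition to Toll activation, was at 7246, 6715 and 7067 in H heads, against 9770, 8184 and 8932 in M heads (log2 difference -0.35 ± 0.08 SE, adjusted p = 0.0388). The 17 intracellular members of both pathways gave 0 calls and a median of -0.03. From M replicate 2 the differences of the 5 called genes lay between -0.30 and -0.22, and without H replicate 3 none of the 5 was called (adjusted p = 0.0864 to 0.13). With the length trend removed *PGRP-LA* was not called (0.0651) and the other 4 were. Of 18 serpins, a family of protease inhibitors, *Spn47C* was the one called (5.56% lower, against 2.75% of all genes). It fell, with 2077, 1906 and 1645 in H heads, against 4491, 3839 and 5410.1 in M heads (log2 difference -1.28 ± 0.12 SE, adjusted p = 0.0033, and -1.04 from M replicate 2).

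Of the small heat shock proteins, which hold unfolded proteins, 3 of 7 fell (42.9%, against 2.75% of all genes). *Hsp22*, the mitochondrial member, was at 14135, 11557 and 15120 in H heads, against 22872, 18263 and 22667 in M heads (log2 difference -0.65 ± 0.14 SE, adjusted p = 0.0369), *Hsp23* at 601, 545 and 894 in H heads, against 1145, 1117 and 1124 in M heads (log2 difference -0.76 ± 0.16 SE, adjusted p = 0.0332) and *Hsp26* at 1703, 1173 and 1381 in H heads, against 1996, 2039 and 3163 in M heads (log2 difference -0.74 ± 0.18 SE, adjusted p = 0.0459). In all 3 genes the H libraries lay below the M libraries, as in every gene called lower. All 7 small heat shock genes had negative log2 differences, with a median of -0.50 and of -0.43 from M replicate 2. No call of the 3 held under both alternatives: with the length trend removed *Hsp23* (0.119) and *Hsp26* (0.0563) were not called, and without H replicate 3 *Hsp22* (0.0624) and *Hsp26* (0.125) were not. *Hsp70Bbb* was at 239, 201 and 258 in H heads, against 409, 484 and 448 in M heads (log2 difference -0.94 ± 0.16 SE, adjusted p = 0.0201); it is one of several nearly identical *Hsp70* copies between which reads may have been divided, so its own level is uncertain. In the endoplasmic reticulum 2 genes rose. *Hsc70-3*, the BiP chaperone, was at 49577, 49516 and 55273 in H heads, against 35569, 38987 and 41241 in M heads (log2 difference 0.42 ± 0.10 SE, adjusted p = 0.0445; 0.40 from M replicate 2), and *Sec61alpha*, the channel through which secreted proteins enter the endoplasmic reticulum, at 21811, 22490 and 19350 in H heads, against 17049, 14561 and 16775 in M heads (log2 difference 0.40 ± 0.09 SE, adjusted p = 0.0387; 0.54 from M replicate 2). These were the 2 called of 24 genes of the secretory machinery (8.33% higher, against 0.643% of all genes), 19 of which had positive log2 differences. The list's median was 0.17, or 0.24 from M replicate 2. *Hsc70-3* had a log2 difference of 0.27 with the length trend removed (adjusted p = 0.137) and an adjusted p of 0.132 without H replicate 3, so its call ended under each, whereas *Sec61alpha* was called under both.

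Cuticle proteins, the chitin-binding proteins of the exoskeleton, fell where called. *Cpr67B* was at 16177, 13688 and 13916 in H heads, against 25498, 22675 and 27010 in M heads (log2 difference -0.78 ± 0.10 SE, adjusted p = 0.00809; -0.64 from M replicate 2) and *Cpr57A* at 2501, 2145 and 2064 in H heads, against 4336, 3489 and 4163 in M heads (log2 difference -0.84 ± 0.13 SE, adjusted p = 0.0122). *Acp65Aa*, an adult cuticle protein, and *Cpr47Eb* had few counts in H heads: *Acp65Aa* was at 8.50, 1.56 and 2.97 in H heads, against 134, 47.8 and 31.8 in M heads (log2 difference -3.71 ± 0.58 SE, adjusted p = 0.0155) and *Cpr47Eb* at 7.44, 7.76 and 15.4 in H heads, against 93.1, 31.5 and 116 in M heads (log2 difference -2.74 ± 0.49 SE, adjusted p = 0.022). At such levels the log2(value + 1) scale understates the change. *Pcp*, a pupal cuticle protein, had the largest difference among well-expressed named genes that fell, with 111, 73.0 and 84.8 in H heads, against 385, 514 and 827 in M heads (log2 difference -2.62 ± 0.32 SE, adjusted p = 0.00605; -2.53 from M replicate 2). *Pcp* is not on the cuticle protein list. Of the 53 genes of that list tested 4 fell (7.55%, against 2.75% of all genes) and none rose. All 4 were also called with the length trend removed and without H replicate 3. *yellow-b*, of the yellow family of pigment and cuticle proteins, was at 1538, 1323 and 1054 in H heads, against 2665, 2206 and 2674 in M heads (log2 difference -0.96 ± 0.13 SE, adjusted p = 0.00858). The 12 largest falls under the same criteria also hold *l(2)k05911*, at 143, 98.9 and 110.2 in H heads, against 475, 200.3 and 372 in M heads (log2 difference -1.50 ± 0.29 SE, adjusted p = 0.0259), and *fiz*, an oxidoreductase, at 2004, 1512 and 1672 in H heads, against 6175, 3409 and 2842 in M heads (log2 difference -1.19 ± 0.27 SE, adjusted p = 0.0388). The adjusted p of *l(2)k05911* was 0.0748 and that of *fiz* 0.109 without H replicate 3.

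Odorant-binding proteins, small secreted carriers of sensory organs and other tissues, gave 7 lower and 0 higher among 38 tested (18.4% lower, against 2.75% of all genes). None of the 7 was called without H replicate 3 (adjusted p = 0.0601 to 0.136), and with the length trend removed *Obp44a* and *Obp57c* were. *Obp44a*, which glia make in abundance, was at 27510, 22711 and 22701 in H heads, against 55442, 37165 and 66653 in M heads (log2 difference -1.09 ± 0.19 SE, adjusted p = 0.0201; -0.62 from M replicate 2). *Obp56a*, *Obp57c*, *Obp57b*, *Obp83cd*, *Obp18a* and *Obp57d* had log2 differences between -0.48 and -0.91, and *Obp57b*, for one, was at 2690, 2532 and 1935 in H heads, against 3553, 3094 and 3634 in M heads. The antennal genes that followed single libraries were not among them. Most of these transcripts are short, with a list median of 620 bases, and the median log2 difference of the list was -0.54, -0.33 with the length trend removed and -0.34 from M replicate 2. No gene of 90 odorant, gustatory and ionotropic receptors tested was called.

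Enzymes of detoxification fell where they were called. Of 82 cytochrome P450 genes, the oxidases that act on toxins and hormones, 7 fell and none rose (8.54% lower, against 2.75% of all genes). *Cyp6a9* was at 4392, 4366 and 4653 in H heads, against 6576, 6106 and 6163 in M heads (log2 difference -0.49 ± 0.07 SE, adjusted p = 0.0113) and *Cyp12a5* at 1445, 1454 and 1398 in H heads, against 2039.9, 1919.7 and 2200.4 in M heads (log2 difference -0.52 ± 0.07 SE, adjusted p = 0.0113), and for each the replicates of a group lay close together. *Cyp6g1*, known for insecticide resistance, was at 32565, 25499 and 27985 in H heads, against 45941, 38313 and 45124 in M heads (log2 difference -0.59 ± 0.13 SE, adjusted p = 0.0365). *Cyp9f2*, *Cyp12a4*, *Cyp311a1* and *Cyp6a14* had log2 differences of -0.56, -0.63, -0.58 and -0.41. All 7 stayed called with the length trend removed, with differences from M replicate 2 between -0.45 and -0.21. Without H replicate 3 *Cyp6a9* and *Cyp12a5* were still called, and the other 5 were not (adjusted p = 0.0553 to 0.101). Among 34 glutathione S-transferases 3 fell (8.82%), *GstZ2* with 3366, 3067 and 2923 in H heads, against 4812, 4522 and 4936 in M heads (log2 difference -0.61 ± 0.08 SE, adjusted p = 0.00745), *GstT4* (-0.38) and *GstE14* (-0.82). *GstZ2* was the one of them called without H replicate 3, and with the length trend removed *GstE14* was not called (0.0585). *Ugt36E1* was the one called of 29 UDP-glycosyltransferases (log2 difference -0.49 ± 0.11 SE, adjusted p = 0.0393), a share of 3.45% near the 2.75% of all genes, and it was not called without H replicate 3 (0.107). *Keap1*, the sensor that holds back the detoxification regulator cnc, rose, with 3210.2, 3162 and 2535 in H heads, against 2015, 2149 and 1955 in M heads (log2 difference 0.53 ± 0.10 SE, adjusted p = 0.0234; 0.46 from M replicate 2).

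Among hormones and signals, 4 of 32 neuropeptide genes fell (12.5%, against 2.75% of all genes) and none rose. None of the 4 was called without H replicate 3 (adjusted p = 0.0779 to 0.139), and with the length trend removed *Capa* (0.127) and *SIFa* (0.0784) were not. *CCHa2*, a nutrient-responsive peptide of fat body and gut that acts on insulin-producing cells, was at 7060.3, 5716 and 4613 in H heads, against 9812, 8191 and 10986 in M heads (log2 difference -0.75 ± 0.17 SE, adjusted p = 0.042). *NPF*, the relative of mammalian neuropeptide Y that acts in feeding, was at 1135, 1049.5 and 944 in H heads, against 1659.6, 1279 and 1905 in M heads (log2 difference -0.61 ± 0.14 SE, adjusted p = 0.0427). *Capa*, whose peptides act on the renal tubules, and *SIFa*, a feeding and sleep peptide, had log2 differences of -0.54 and -0.73, and from M replicate 2 the 4 differences lay between -0.52 and -0.30. Of 23 genes of the insulin pathway *Thor*, the 4E-BP repressor of translation, was called lower, with 20790, 17857 and 19183 in H heads, against 30153, 23865 and 29042 in M heads (log2 difference -0.52 ± 0.12 SE, adjusted p = 0.0388). Its log2 difference was -0.28 with the length trend removed (adjusted p = 0.0938), and its adjusted p was 0.102 without H replicate 3. Of 19 genes of the TOR pathway, which couples growth to amino acids, *Rheb*, its activating GTPase, and *REPTOR-BP*, the partner of a transcription factor that TOR holds back, were called lower (-0.36 and -0.49). With the length trend removed these were -0.20 and -0.23 and still called, and without H replicate 3 they were not called (0.106 and 0.0691). *per*, the clock repressor, was the one called of 10 circadian genes, with 2011, 1879 and 1701 in H heads, against 2595, 3068 and 2410 in M heads (log2 difference -0.53 ± 0.11 SE, adjusted p = 0.0362; -0.72 from M replicate 2; adjusted p = 0.112 without H replicate 3), whereas *Clk*, its activator, was at 4358, 4751 and 3956 in H heads, against 2812, 3811 and 2583 in M heads (log2 difference 0.52 ± 0.13 SE, adjusted p = 0.0558). No gene of the juvenile hormone list (13 tested) was called. Of 17 ecdysone genes, *ImpE1* rose with 438, 560 and 467 in H heads, against 325, 324 and 339 in M heads (log2 difference 0.56 ± 0.11 SE, adjusted p = 0.0259). Its log2 difference was 0.58 from M replicate 2 but 0.11 with the length trend removed (adjusted p = 0.772). *Atg8a*, the ubiquitin-like protein of autophagosomes, was the one called of 21 autophagy genes (log2 difference -0.34 ± 0.08 SE, adjusted p = 0.0393), and its difference was -0.19 with the trend removed (adjusted p = 0.139). Neither *ImpE1* (0.058) nor *Atg8a* (0.0757) was called without H replicate 3. The shares called lower were 4.35% of the insulin list, 10.5% of the TOR list, 10% of the circadian list and 4.76% of the autophagy list. Among all genes the share was 2.75%, near those of the insulin and autophagy lists. Of the ecdysone list 5.88% was called higher, against 0.643% of all genes. Each of these lists except TOR had 1 called gene.

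Several large groups had no call, although nearly all members shared a sign. The 88 cytosolic ribosomal protein genes, with a median transcript of 708.5 bases, all had negative log2 differences, with a median of -0.29, but -0.0035 from M replicate 2. The 35 genes of respiratory complex I had a median of -0.27 and of -0.01 from M replicate 2. For the 38 proteasome genes these values were -0.20 and -0.0094, and for 74 mitochondrial ribosomal proteins -0.19 and 0.05. The 55 genes of synapses, channels and transmitters, with a median transcript of 3771.5 bases, gave positive values in 54 cases and a median of 0.41, but 0.0044 from M replicate 2. The 6 neuron markers had a median of 0.61 and of 0.06 from M replicate 2. Muscle genes (26 tested) were not called either, and 18 had negative and 8 positive log2 differences. Their median was -0.16, and -0.25 from M replicate 2. In 8 muscle genes all H libraries lay below all M libraries, against 10.7% of all genes tested. With the length trend removed 3 muscle genes were called lower, against 3.73% of all genes. Glial markers (7 tested) had a median of -0.10, and of -0.08 from M replicate 2. *Mp20*, a muscle protein that is not on the muscle list, fell, with 9666, 9477 and 8519 in H heads, against 14204, 15226 and 14364 in M heads (log2 difference -0.66 ± 0.08 SE, adjusted p = 0.00476; -0.73 from M replicate 2).

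**Figure D4:**
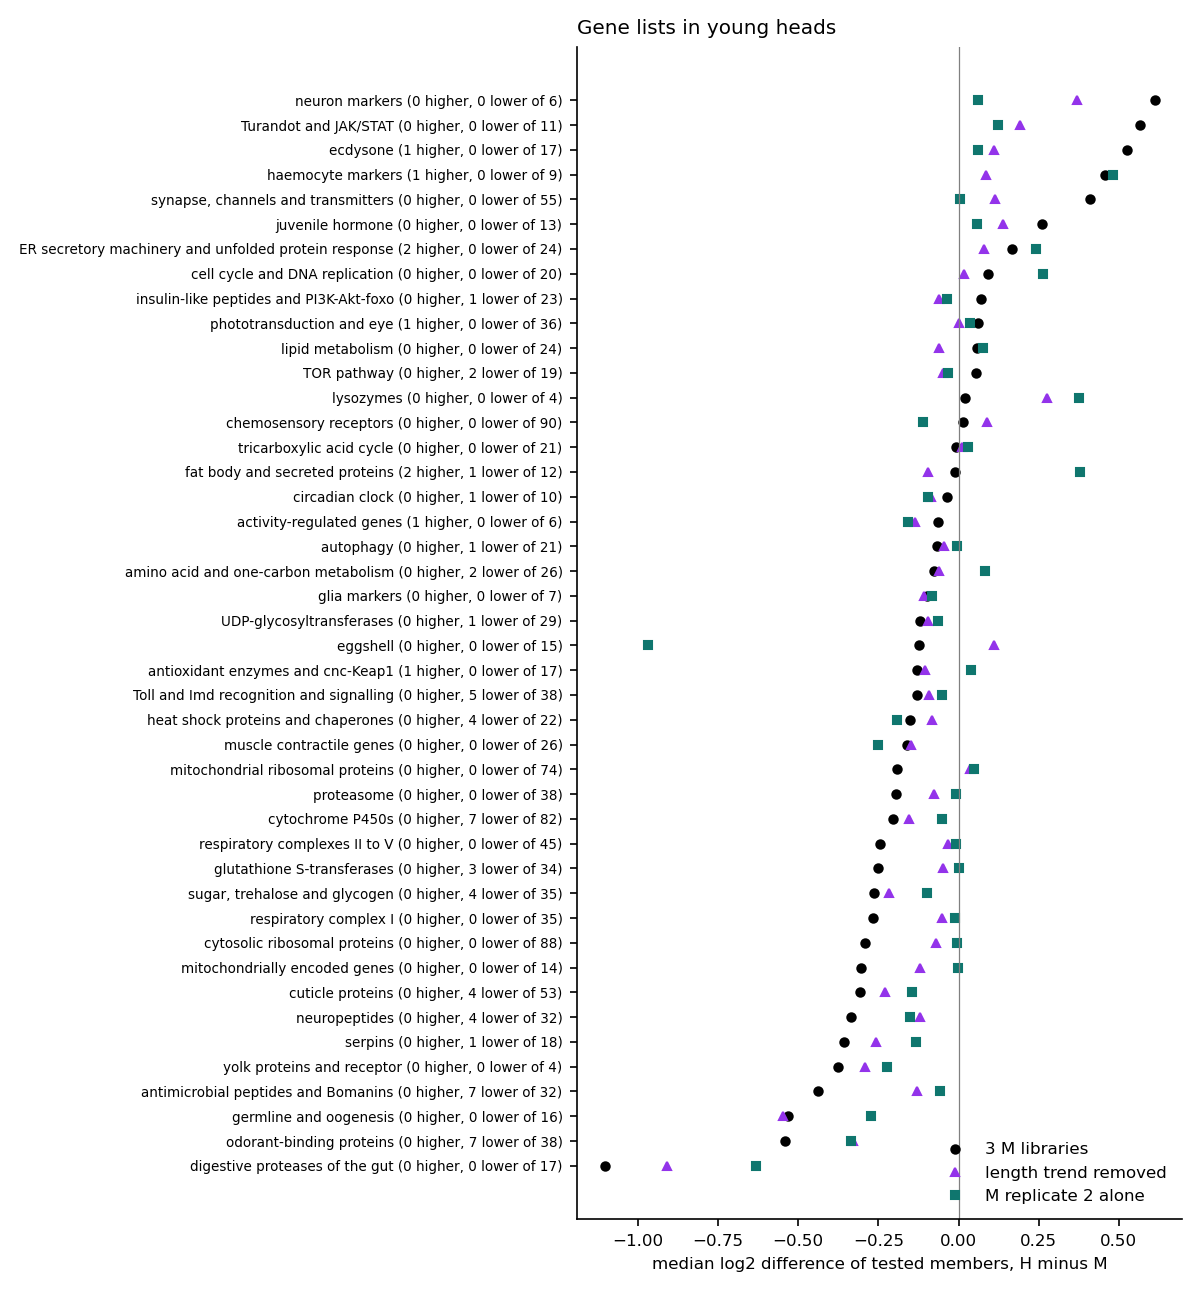
Median log2 difference of H minus M over the tested members of each gene list in young heads (x), with all 3 M libraries (circles), with the length trend removed (triangles) and with M replicate 2 alone (squares); row names give the members called higher and lower of those tested. Lists of short transcripts such as ribosomal proteins (-0.29) and of long ones such as synapse genes (0.41) lie near 0 in the squares.

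A part of the head differences was also present in the young fat body samples, which are abdomens without gut and ovaries. Each female gave all of the tissues, so heads and fat body came from one collection of females and cannot be taken as independent. The H fat body samples are replicates 1, 2 and 4, and the H head samples replicates 1, 2 and 3. The females in the sequenced pools may therefore differ in part. The labels and methods do not say whether samples with the same number hold the same females. The tables were normalized separately. In fat body, 53 genes were called higher in H (0.488% of 10850 tested) and 54 lower (0.498%). Of the head genes higher in H, 70 were tested in fat body, 7 were called there in the same direction and 0 in the opposite one. Of those lower in H heads, 301 were tested, and 13 were called in the same direction and 0 in the opposite one. The length correlation of the fat body libraries lay between -0.057 and 0.13 in H and between -0.021 and 0.20 in M. The trehalose transporters fell in both: *Tret1-2* was at 65.7, 98.7 and 61.7 in H fat body, against 308, 316 and 321 in M fat body (log2 difference -2.08 ± 0.19 SE, adjusted p = 0.00378) and *Tret1-1* at 26407, 26042 and 25094 in H fat body, against 41894, 43633 and 43721 in M fat body (log2 difference -0.74 ± 0.09 SE, adjusted p = 0.0102). *Tsf1* was at 42837, 49937 and 41640 in H fat body, against 106740, 100690 and 177520 in M fat body (log2 difference -1.47 ± 0.20 SE, adjusted p = 0.0155).

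*CROT* rose in fat body as in heads, with 18266, 21575 and 21610 in H fat body, against 9325, 10652 and 10867 in M fat body (log2 difference 0.99 ± 0.15 SE, adjusted p = 0.0235), as did *daw*, with 18747, 18823 and 23632 in H fat body, against 9189, 11725 and 10315 in M fat body (log2 difference 0.97 ± 0.16 SE, adjusted p = 0.0294). *wit*, a type II receptor for ligands of the BMP and activin family, had log2 differences of 0.45 in heads and 0.60 in fat body, and *Sec61alpha* of 0.40 and 0.75. *apolpp* kept its head difference from M replicate 2 but not with the length trend removed. It was at 1124500, 1012800 and 1261900 in H fat body, against 690850, 746640 and 825210 in M fat body (log2 difference 0.59 ± 0.11 SE, adjusted p = 0.043). The genes lower in both further include *Cyt-b5-r*, a relative of cytochrome b5 (-0.81 in heads and -1.02 in fat body), *GLaz*, a lipocalin related to apolipoprotein D (-0.47 and -0.91), *Cyp6g1* (-0.59 and -0.63), *Ugt36E1* (-0.49 and -0.43) and *pyx*, a heat-activated TRP channel (-0.37 and -0.88). *CG31775* and *CG42586* had the largest head difference among the 72 genes higher in H. Their values are identical in every library of both tables, so they cannot be told apart and stand for 1 gene. They were at 3775, 2873 and 2357 in H heads, against 399.8, 383 and 427 in M heads (log2 difference 2.87 ± 0.49 SE, adjusted p = 0.0201), and at 3101, 2889.7 and 5818 in H fat body, against 213, 308 and 469 in M fat body. When H replicate 3 was left out, *CROT*, *daw*, *wit*, *Cyt-b5-r*, *GLaz*, *Cyp6g1*, *Ugt36E1*, *pyx* and *Tret1-1* were not called in heads, and with the length trend removed *wit* (adjusted p = 0.0653) and *apolpp* were not. These genes, and the others called in both tissues, were named after their values were seen. In ovaries 1084 genes were called higher in H (11.5% of 9438 tested) and 1272 lower (13.5%). Of the head genes lower in H, 264 were tested in ovaries, and 24 were called there in the same direction and 27 in the opposite one, while of 63 higher head genes 17 were called in the same direction and 1 in the opposite one.

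In old heads few genes differed between the diets, with 4 called higher in H (0.0357%) and 18 lower (0.161%) and 585 genes at an unadjusted p under 0.05, against 3530 in young heads. Of the young head calls, 33 of the 72 higher and 159 of the 308 lower genes had the same direction in old heads, and 0 and 1 were called there. The 1 was *BomT3*, with a log2 difference of -0.63 ± 0.08 SE in old heads (adjusted p = 0.0142). The difference between the young and the old log2 difference was tested for every gene, and 8 genes were called with a higher value in young heads (0.0714%) and 9 with a lower one (0.0804%). *Hr38* was among the 8: it was at 471, 620.3 and 578 in old H heads, against 697, 825 and 960.4 in old M heads, so that the young and the old difference had opposite signs (difference 2.22 ± 0.27 SE, adjusted p = 0.0197). The old difference of *Hr38* was itself not called in limma (log2 difference -0.57, adjusted p = 0.623). *Obp44a* and *Spn47C* were among the 9. *Obp44a* was at 65339, 55829 and 62276 in old H heads, against 46844, 39589 and 35599 in old M heads (difference -1.69 ± 0.27 SE, adjusted p = 0.0381), where all H libraries lay above all M libraries. Its old difference was not called in limma either (log2 difference 0.59, adjusted p = 0.519). *Spn47C* was at 7890.1, 8563 and 8206 in old H heads, against 8129, 8951 and 8005 in old M heads (difference -1.26 ± 0.17 SE, adjusted p = 0.0296), with no separation by diet.

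The other named genes of the 8 were 5 immune peptides and a peptidase, each called lower in H in old heads and not called in young heads. *DptB*, a diptericin, was at 4632, 3856 and 6557 in young H heads, against 4174, 2255 and 1772 in young M heads, and at 2762, 1236 and 1311 in old H heads, against 36734, 10983 and 45101 in old M heads (difference 4.93 ± 0.75 SE, adjusted p = 0.0381). *Mtk*, metchnikowin, an antifungal and antibacterial peptide, was at 11238, 10386 and 11388 in young H heads, against 10068, 8057 and 8555 in young M heads, and at 14360, 12618 and 11357 in old H heads, against 39396, 22571 and 32285 in old M heads (difference 1.58 ± 0.25 SE, adjusted p = 0.0381). Old M libraries were high and the other 3 groups low for both. *AttA*, *AttB* and *Mtkl* had the same order; *AttA* and *AttB* are close copies between which reads may have been divided. In young heads the log2 differences of *DptB*, *Mtk*, *AttA*, *AttB* and *Mtkl* were 0.94, 0.31, 0.39, 0.20 and 0.94, none of them called. With the length trend removed *Mtkl* was called higher in young H heads (log2 difference 1.26, adjusted p = 0.0475 in limma), and the others were not. Without H replicate 3 the adjusted p of *Mtkl* was 0.218. *Nep7*, a neprilysin-type peptidase, was at 1429.6, 1306 and 1309 in young H heads, against 1266, 1129.7 and 1216 in young M heads, and at 1127, 1001 and 1077 in old H heads, against 1783, 1540.2 and 1484 in old M heads (difference 0.75 ± 0.12 SE, adjusted p = 0.0462). The counts of 8 and 9 became 0 and 0 without M RNA-1 replicate 1, H RNA-2 replicate 3 or H RNA-2 replicate 4, and 2015 and 1572 without M RNA-1 replicate 2.

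**Figure D5:**
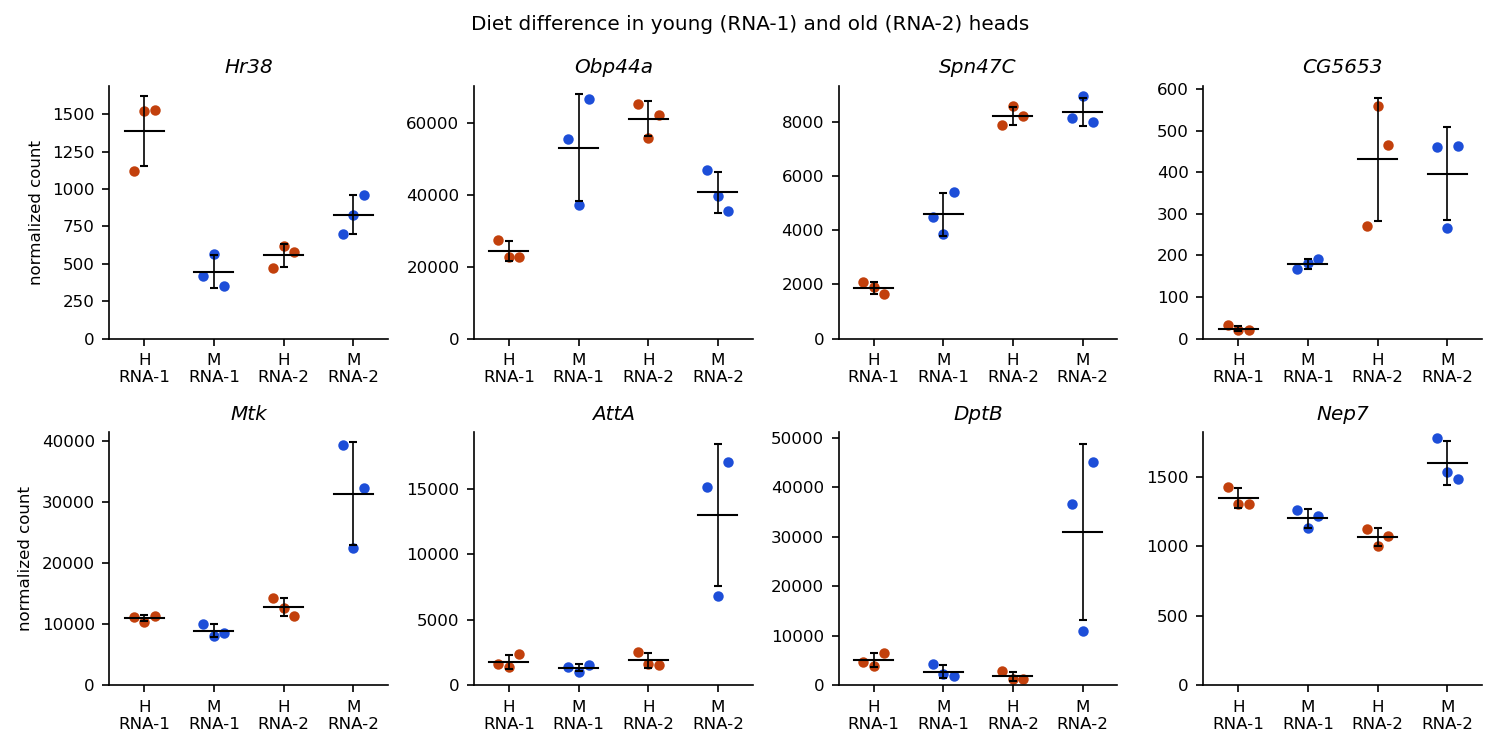
Normalized counts (y) of 8 genes for which the diet difference itself differed between young (RNA-1) and old (RNA-2) heads, H in orange and M in blue, with the mean (long bar) and SD (error bar, n = 3 each). *Hr38*, *Obp44a*, *Spn47C* and *CG5653* were called in young heads, and *Mtk*, *AttA*, *DptB* and *Nep7* in old heads.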

How the data were processed

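Per the labels and the study's methods, mRNA from pooled heads was sequenced as paired reads from stranded libraries. The signal values of the deposited tables are counts per gene that the authors estimated with kallisto 0.46.1 (BDGP6) and then scaled with DESeq2 1.28.1. Columns of the authors' own comparisons between time points (log2 fold changes and p-values) were not used, and 0 library columns were unmapped. Low values step differently between genes, so whole reads were not recovered, and no count model was fitted.

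Normalized counts of the 12 head libraries were fitted as log2(value + 1) in limma 3.58.1 (R 4.3.3, statmod 1.5.0) with 4 groups, a variance trend and robust variances; p-values were Benjamini-Hochberg adjusted over 11197 genes. The 12 libraries share one estimate of the spread. Fat body and ovaries were fitted likewise in their own tables. Transcript length was the median over a gene's annotated transcripts (Ensembl release 115, found for 99.3% of genes), and trends were removed per library by lowess with a span of 0.4. For M replicate 2 alone, the other RNA-1 M libraries were left out, and the single library was assumed to vary like the other groups.

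Members, the 45 gene lists and the tests were chosen with earlier results of these data known. Named genes are the 12 largest differences per side among genes with a name and a mean of at least 100 that were called with and without the length trend, had groups that did not overlap and kept at least 0.5 times the difference from M replicate 2. To these come up to 4 genes per list with the smallest p, and up to 5 per side with the smallest adjusted p for the test between ages. Others were chosen after their values were seen: these are the eye opsins beside *Rh2*, the remaining called members of a list, the genes of H replicate 3, the antennal genes and the genes called in fat body. A gene that the rule names is not reported here. The fit was tested on simulated data in which genes varied independently, with no length trend and no library standing apart. It therefore does not show how the fit behaves with those features. Of 100 genes changed by a log2 of 0.5, 39% were recovered, and of 100 changed by 1.0, 76%, with 8 false calls.

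Replicates are biological samples per the labels, and 3 per group limit the precision.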

Additional observations from a re-analysis of the deposited data

Results flagged for a closer look

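The diet difference itself differed between young and old heads for 17 genes by limma's test of the difference (young minus old log2 difference, adjusted p under 0.05 over 11197 genes, 3 libraries per group). It was lower in young heads for *CG8299* (-3.94), *CG5653* (-2.98), *Obp44a* (-1.69), *Spn47C* (-1.26), *CG13117* (-1.03), *CG10126* (-0.94), *CG31778* (-0.76), *CG12016* (-0.74) and *CG14615* (-0.70). It was higher in young heads for *Nep7* (0.75), *CG11034* (1.24), *Mtk* (1.58), *Hr38* (2.22), *AttA* (3.10), *AttB* (3.15), *Mtkl* (3.58) and *DptB* (4.93).

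The 9 genes on the lower side had all young H libraries below all young M libraries. *CG5653* was at 31.9, 20.1 and 20.1 in young H heads and 166, 181 and 190.4 in young M heads, and at 270.1, 560.1 and 465 in old H heads and 459.8, 267 and 463 in old M heads. *CG8299* was at 107, 48.1 and 117 in young H heads and 568, 267 and 254 in young M heads, and at 233, 321 and 601 in old H heads and 116, 69.2 and 93.4 in old M heads, so that its order turned round. Its old difference was not called in limma (log2 difference 1.96, adjusted p = 0.192). *CG11034* was at 317, 402 and 382 in young H heads and 391, 345 and 409 in young M heads, and at 387, 359 and 487 in old H heads and 947, 971 and 1099 in old M heads, so that its difference lay in old heads. All 17 were still called with the length trend removed, and none with M RNA-1 replicate 2 as the only young M library.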

How the results depend on the processing

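The counts of 72 higher and 308 lower genes in young H heads were 41 and 193 without a variance trend and robust variances, 65 and 187 after division by library totals (which moved the median of all genes by 0.07 on the log2 scale), 2 and 1 in the 6 libraries alone, 114 and 418 with the length trend removed, and 0 and 1 with M replicate 2 as the only M library. They were 1 and 18 at an adjusted p under 0.01 and 8 and 52 at a change of at least 2-fold. Library weights gave 3195 and 3547, but the weights did not converge and gave M replicate 1 a weight of 30.4. Quantile normalization, pseudocounts of 0.5 and 5, no filter and a filter at 50 kept both counts within 1.5 times. Leaving out 1 library gave 1 to 2477 higher and 9 to 2216 lower genes. The next alternatives, and the lists without H replicate 3, were chosen after seeing the data: with the length trend removed and H replicate 3 left out the counts were 98 and 280, and with M replicate 2 as the only M library and H replicate 3 left out they were 5 and 12. The cause was not tested.

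Replicate numbers were checked for pairing: the deviations of same-numbered H and M libraries had correlations of -0.0769, 0.0796 and 0.025. Pairs with different numbers ran from -0.183 to 0.147. Deviations of the M libraries also carry the length trend, so the check cannot tell whether the numbers pair the samples. With the replicate block the counts were 7 and 49, with the block and the length trend removed 46 and 232, and 27 of the 91 called genes chosen for naming kept their call.

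For the difference between young and old heads, the counts of 8 and 9 were 42 and 99 with the length trend removed, 2 and 0 with the replicate block, and 0 and 1 with M RNA-1 replicate 2 as the only young M library; leaving out 1 library gave 0 to 2015 and 0 to 1572, and leaving out any head library but H RNA-1 replicate 3 moved a count by over 1.5 times. Of the 91 genes, 70 kept their call with the length trend removed, 7 without M replicate 1, 19 without M replicate 3, 15 without H replicate 2, 36 without H replicate 3 and 0 with M replicate 2 as the only M library. The one change of direction was *apolpp*, at -0.12 with the length trend removed, with and without the block.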
